A study of Arabidopsis thaliana with 42 samples.

Results

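The 45 genes described here encode the light-harvesting and photosystem proteins that Arabidopsis thaliana makes from nuclear DNA: 6 LHCA and 15 LHCB antenna proteins, the early light-induced proteins ELIP1 and ELIP2, PSBS, 12 subunits of photosystem I and 9 of photosystem II. They were taken by locus, as families and complexes; the rule uses no measured value, but the list was drawn up with earlier results of these data known. They were 45 of the 33770 nuclear genes and genes called new by the authors in the deposited tables, and all 45 were among the 20669 genes that passed the filter on low values (at least 1 RPKM in at least 2 libraries; RPKM is a read density, the reads on a gene divided by its exon length and by the library's mapped total). The members' levels were compared between whole seedlings of 18 accessions (natural inbred strains) and those of Col-0, from which the reference genome was made, and across all 19. The 18 were Bur-0, Can-0, Ct-1, Edi-0, Hi-0, Kn-0, Ler-0, Mt-0, No-0, Oy-0, Po-0, Rsch-4, Sf-2, Tsu-0, Wil-2, Ws-0, Wu-0 and Zu-0. The labels name no mutation and no treatment for any group: in all 19, plants about 11 days old grew on soil at 20 °C with 16 hours of light and 8 hours of dark after 5 days of cold stratification at 4 °C. There were 2 biological replicates of every accession, which makes 38 libraries, and Col-0 also had 4 technical replicates. The labels do not say how plants were pooled, so p-values measure the spread between these libraries. The sources used here do not state at what hour the seedlings were taken.

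In plant chloroplasts, antenna proteins bind chlorophyll and carotenoids and pass the absorbed energy to the reaction centres of photosystem I and photosystem II. The LHCA proteins form the belt around photosystem I, LHCB1, LHCB2 and LHCB3 form the trimers of the major antenna of photosystem II, and LHCB4, LHCB5 and LHCB6 are monomeric linkers to its core. Genes of the LHCB family are known for transcription that follows light and the circadian clock, while ELIPs accumulate during greening and light stress, and PSBS senses the acidity of the thylakoid lumen and switches on the release of excess energy as heat.

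Estimated depth was 3620000 reads for the median library, at least 1240000 (the second Ws-0 library) and at most 4920000 (the second Ct-1 library). A gene of 1000 bases with 3 reads would accordingly show 0.610 to 2.42 RPKM, a floor that covers counting error only. The 45 members held 12.96% to 17.3% of the summed nuclear RPKM of a library, with a median of 15.0%, and the members nearest to the floor were ELIP2, LHCB7, ELIP1 and LHCB4.3. By the labels, 5 pairs of sequencing lanes held 3 or 4 accessions each, so accession and lane pair are partly confounded, and both Zu-0 libraries shared a lane. The tissue held cells of several kinds: among marker genes, the sum of 6 root genes was 97.5 to 472 RPKM. Most of that sum was PYK10, at 81.1 to 448 RPKM, while none of the others exceeded the 17.4 RPKM of SCR. The root marker sums below therefore follow mainly PYK10. The senescence marker SAG12 was listed at 0 in all 38. In such whole-seedling RNA, fewer cells of a type and less RNA per cell cannot be told apart.

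Sequences of 3 neighbouring antenna genes are shown first because their likeness bears on how reads can be assigned to them. LHCB1.1, LHCB1.2 and LHCB1.3 lie within a few kilobases of chromosome 1 and have 1 exon each. In RefSeq's TAIR10.1 build, LHCB1.2 occupies chr1:10472280-10473502 (minus strand), LHCB1.1 chr1:10474656-10475969 (minus strand) and LHCB1.3 chr1:10477885-10479114 (plus strand). The lines below give coding bases 25 to 84 of 804 in each, from chr1:10475809-10475868, chr1:10473163-10473222 and chr1:10478095-10478154, read 5′ to 3′ in the coding direction. Capitals mark the 8 positions at which the 3 genes differ in this window, of 47 over the whole coding length.
LHCB1.1: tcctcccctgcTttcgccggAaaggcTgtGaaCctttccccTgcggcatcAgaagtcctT
LHCB1.2: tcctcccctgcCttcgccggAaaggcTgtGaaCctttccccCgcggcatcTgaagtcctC
LHCB1.3: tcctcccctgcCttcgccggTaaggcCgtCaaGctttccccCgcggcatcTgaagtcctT
Over their coding length LHCB1.1 and LHCB1.2 had 95.6% identical bases, LHCB1.1 and LHCB1.3 96.1%, and LHCB1.2 and LHCB1.3 96.4%. LHCB2.1 and LHCB2.2 were 92.9% identical, and LHCB2.2 and LHCB2.3 84.7%. Of all words of 36 bases in the exons of a member, 37.1% also occurred elsewhere in the genome for LHCB2.2, 30.5% for LHCB2.1, 18.8% for LHCA2 and 20.4% to 27.2% for the 5 LHCB1 genes. Words of 75 bases were shared less, with 20.5% for LHCB2.2, 16.2% for LHCB2.1, 2.88% for LHCA2 and 3.66% to 10.4% for the 5 LHCB1 genes. For 35 members no word of 36 bases occurred elsewhere. The sources used here do not say how the authors assigned reads with several matches, so levels of single LHCB1 genes and of LHCB2.1, LHCB2.2 and LHCA2 are uncertain. In addition, 17 members overlap another annotated gene, among them LHCB2.3, LHCB3, LHCB4.2, PSAD2 and PSBR, and the use of strand in counting was not given either.

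Upstream sequences are shown for 4 of the 5 members with the widest range of levels, ELIP1, ELIP2, LHCB2.2 and LHCB2.3, to show where motifs tied to light and the clock lie. The other of the 5, LHCB4.3, held none of the motifs searched and is not printed. Each is the 300 bases before the annotated start in TAIR10.1, read 5′ to 3′ towards the gene: chr3:8085670-8085969 (minus strand) for ELIP1, chr4:8417942-8418241 (plus strand) for ELIP2, chr2:1800473-1800772 (minus strand) for LHCB2.2 and chr3:10255606-10255905 (plus strand) for LHCB2.3. Capitals mark matches, on either strand, to the G-box CACGTG, the I-box GATAAG, the CCAAT-like CCAATC, the evening element AAAATATCT or the CCA1-binding AAAAATCT.
ELIP1: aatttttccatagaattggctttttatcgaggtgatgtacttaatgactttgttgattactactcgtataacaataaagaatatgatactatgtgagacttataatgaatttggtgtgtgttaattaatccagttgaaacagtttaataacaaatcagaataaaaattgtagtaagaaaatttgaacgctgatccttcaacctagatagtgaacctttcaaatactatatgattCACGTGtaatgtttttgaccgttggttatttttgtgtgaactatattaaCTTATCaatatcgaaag
ELIP2: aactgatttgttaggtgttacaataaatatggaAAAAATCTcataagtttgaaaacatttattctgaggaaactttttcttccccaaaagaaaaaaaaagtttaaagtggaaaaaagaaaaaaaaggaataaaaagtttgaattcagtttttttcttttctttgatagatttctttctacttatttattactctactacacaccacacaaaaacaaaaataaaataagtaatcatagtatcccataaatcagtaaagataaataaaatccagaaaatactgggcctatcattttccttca
LHCB2.2: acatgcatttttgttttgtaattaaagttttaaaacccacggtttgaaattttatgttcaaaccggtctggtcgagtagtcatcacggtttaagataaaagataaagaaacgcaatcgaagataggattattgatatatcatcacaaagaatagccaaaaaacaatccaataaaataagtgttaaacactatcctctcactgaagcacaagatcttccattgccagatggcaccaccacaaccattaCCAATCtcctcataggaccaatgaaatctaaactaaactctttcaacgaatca
LHCB2.3: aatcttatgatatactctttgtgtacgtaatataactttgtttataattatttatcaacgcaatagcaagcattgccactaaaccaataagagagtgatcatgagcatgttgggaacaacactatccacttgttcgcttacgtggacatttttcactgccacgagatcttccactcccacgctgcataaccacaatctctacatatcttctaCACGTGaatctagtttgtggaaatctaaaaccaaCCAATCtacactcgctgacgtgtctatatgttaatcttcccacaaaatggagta
ELIP1 held CACGTG 66 bases before its start and GATAAG, on the other strand, 17 bases before it. ELIP2 held AAAAATCT 267 bases before its start. LHCB2.2 held CCAATC 53 bases before its start, and LHCB2.3 held CACGTG 88 bases and CCAATC 54 bases before it. CACGTG was found in 22.2% of the members and 7.09% of all 27443 protein-coding genes, and CCAATC in 26.7% and 12.2%, with 7 of the 15 LHCB genes among those holding it. GATAAG was found in 22.2% of the members and 14.5% of all genes, AAAAATCT in 13.3% and 7.94%, and AAAATATCT in 2.22% and 2.79%. A match is a description of letters in the Col-0 sequence, not of a bound site.

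Of the 45 members, 35 (77.8%) differed among the 19 accessions, against 55.3% of all tested genes (limma's F test on log2(RPKM + 1), adjusted p below 0.05 over all genes). All 6 LHCA genes, all 15 LHCB genes and all 3 photoprotective genes passed, while 6 of 12 photosystem I and 5 of 9 photosystem II subunits did. Those that did not pass were PSAD1, PSAE1, PSAF, PSAH2, PSAL, PSAO, PSBO1, PSBP1, PSBQ1 and PSBW, with adjusted p from 0.0715 for PSAL to 0.553 for PSBQ1. Other settings ended some of the 35 calls. With lane added as a block, 25 members passed, and LHCA1, LHCA4, LHCB4.1, LHCB5, PSAG, PSAH1, PSAK, PSAN, PSBX and PSBY did not, with adjusted p from 0.0501 for LHCB4.1 to 0.216 for PSAH1. The block took out shifts between the first and second lane of a pair, not differences between lane pairs. Quantile normalization ended the calls of LHCA1, LHCA4, LHCB1.5, LHCB4.1, LHCB5, LHCB6, LHCB7, PSBR and PSBY, with adjusted p from 0.0565 for PSBY to 0.202 for PSBR, and brought in PSAD1 (0.0279). With no filter on low values, which brings 31053 genes into the fit, 18 members passed; besides those that the lane block ended, LHCB1.2, LHCB1.3, LHCB1.5, LHCB3, LHCB6, LHCB7 and PSBR no longer did. The 5 members with the widest spans, ELIP2, LHCB2.3, ELIP1, LHCB4.3 and LHCB2.2, passed in each of these fits. Most members are abundant, and abundant genes passed often: of genes with a mean of at least 1000 RPKM, 26 of 36 members (72.2%) and 38 of 42 others (90.5%) did. The spread between accessions was small for most members. The median SD of the 19 accession means was 0.18 on the log2 scale for members and 0.27 for all tested genes, and the median span from the highest to the lowest accession was 0.70 against 1.00. The SD between libraries of an accession, as moderated by limma towards a trend on level, was smaller too, at a median of 0.14 against 0.23. A span of at least 1, which is a doubling on this scale, was reached by 9 of 21 antenna genes, by ELIP1 and ELIP2, and by none of the 21 core subunits. Antenna genes spanned 0.52 to 3.88, with a median of 0.96, and core subunits 0.28 to 0.88, with a median of 0.64. In what follows, a value with ± is an accession's mean RPKM with its SD (n = 2 libraries), and spans and differences are on the log2(RPKM + 1) scale, which understates the change of low genes.

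**Figure D1:**
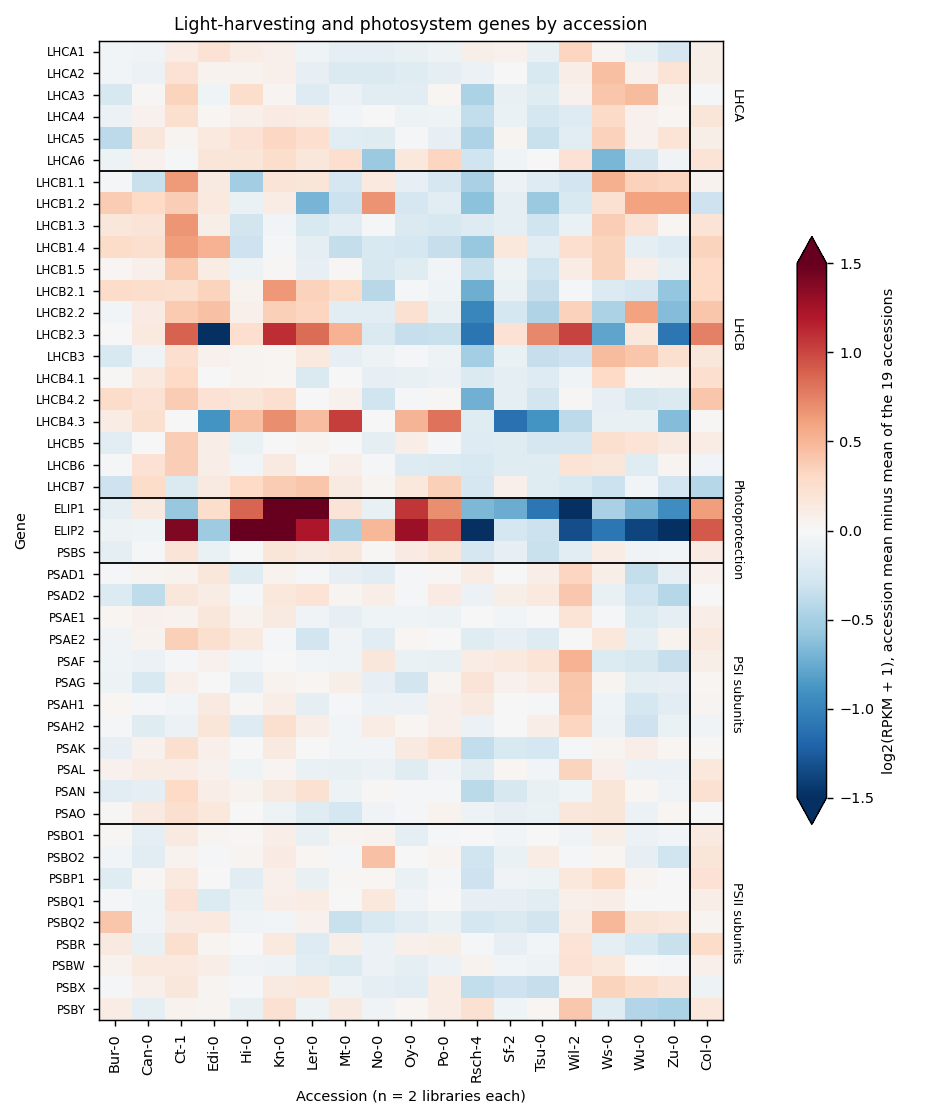
Level of the 45 members (down the page, by role) in the 19 accessions (across, Col-0 last), as the accession's mean log2(RPKM + 1) minus the mean of the 19 accessions. Colour is clipped at 1.5 in either direction; the darkest squares lie in the ELIP1, ELIP2, LHCB2.3 and LHCB4.3 lines, and the core subunits, which spanned at most 0.88, are pale.

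Among the antenna genes of photosystem I, LHCA1 to LHCA4, which encode the belt itself, were abundant and moved by less than a doubling. LHCA1 (AT3G54890) was the most abundant, with 4516 RPKM in the lowest library, 5409 at the median and 7049 in the highest. It averaged 6843 ± 290.2 in Wil-2 and 4615 ± 141 in Zu-0, a span of 0.57 (adjusted p = 0.0160); without Wil-2 replicate 2 the adjusted p was 0.0524. LHCA3 (AT1G61520) ranged most of the 4, with 2001, 2938 and 4290 RPKM in the lowest, median and highest library. It averaged 4184 ± 149.99 in Wu-0 and 2171 ± 239.9 in Rsch-4, 1.93-fold apart (span 0.95, adjusted p = 3.63e-05), and both Rsch-4 libraries lay below all 36 others. LHCA2 reached 4046 ± 135 in Ws-0 and 2535 ± 285 in Tsu-0 (adjusted p = 0.000628), and LHCA4 5367 ± 224 in Ws-0 and 3459.5 ± 691 in Rsch-4 (adjusted p = 0.0198). LHCA5 and LHCA6, scarce proteins that tie photosystem I to the NDH complex of cyclic electron flow, stood far lower. LHCA6 (AT1G19150) had 83.4 RPKM in No-0 replicate 2, 168 at the median and 202 in Po-0 replicate 1. It averaged 194 ± 11.0 in Po-0 and 96.3 ± 6.28 in Ws-0, 2.02-fold apart (span 1.01, adjusted p = 6.67e-06). LHCA5 averaged 209 ± 7.92 in Ws-0 and 121 ± 29.3 in Rsch-4, so Ws-0 was the highest accession for one of the pair and the lowest for the other.

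LHCB2 held the member with the widest antenna range. LHCB2.3 (AT3G27690, chr3:10255906-10257489, plus strand, 2 exons), a gene for a protein of the major trimers, had 171 RPKM in Edi-0 replicate 2, 1492 at the median and 2831 in Tsu-0 replicate 2. Kn-0 had 2749.7 and 2791 RPKM, against 206 and 171 RPKM in Edi-0, and no other library was below 568. The accession means were 2770.5 ± 29.4 in Kn-0 and 189 ± 25.4 in Edi-0, 14.7-fold apart (span 3.88, adjusted p = 3.51e-09). Rsch-4, with 632 and 568 RPKM, and Zu-0, with 599.5 and 611, were the next lowest accessions, while Wil-2 had 2617 and 2539. LHCB2.2 (AT2G05070, chr2:1799234-1800472, minus strand, 2 exons) did not share the low value of Edi-0: Wu-0 had 2087 and 1727 RPKM, Edi-0 1631 and 1758, and Rsch-4 594.5 and 676. Its highest and lowest accession means were 1907 ± 255 in Wu-0 and 635 ± 57.3 in Rsch-4, 3.00-fold apart (span 1.58, adjusted p = 3.61e-07). LHCB2.1 had 531, 934 and 1734.6 RPKM in the lowest, median and highest library, with 1499 ± 333 in Kn-0 and 567 ± 50.6 in Rsch-4 (span 1.39, adjusted p = 4.88e-05). The ratio of LHCB2.3 to LHCB2.2, taken in each library and averaged, was 2.31 in Tsu-0, 0.112 in Edi-0 and 1.11 at the median of the accessions.

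The 5 LHCB1 genes encode nearly the same trimer protein, and their levels are given with the caution on shared sequence above. LHCB1.1 (AT1G29920) had 2247 and 2396 RPKM in Ct-1, above all 36 other libraries, the next being Ws-0 replicate 2 with 2208. Its accession means were 2322 ± 105 in Ct-1 and 1044 ± 103 in Hi-0 (span 1.15, adjusted p = 3.89e-05). LHCB1.4 averaged 2561 ± 32.6 in Ct-1 and 1120.2 ± 160.4 in Rsch-4 (span 1.1999, adjusted p = 0.00286), LHCB1.3 4952 ± 444 in Ct-1 and 2578 ± 601 in Tsu-0 (span 0.96, adjusted p = 0.00657), and LHCB1.5 5489 ± 207 in Ct-1 and 3348 ± 388 in Rsch-4 (span 0.72, adjusted p = 0.0244). Ct-1 was thus the highest accession for 4 of the 5. The exception was LHCB1.2, which ranged from 352 RPKM in Col-0 replicate 2 through a median of 648 to 1373 in Bur-0 replicate 1, with 1122 ± 187 in No-0 and 433.5 ± 48.4 in Ler-0. With lane added as a block, LHCB1.2 had an adjusted p of 4.15e-06 in limma's F test, lower than without the block. Its span of 1.36 had an adjusted p of 0.0327, which was above 0.05 in 9 of the 38 fits that left out 1 library, at most 0.0674 (without Ler-0 replicate 1). For LHCB1.5 the adjusted p was 0.0597 without Ct-1 replicate 2 and 0.0508 without Ws-0 replicate 2.

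LHCB3 (AT5G54270), the trimer protein without a phosphorylation site of the LHCB1 and LHCB2 kind, had 2830, 4480 and 6592 RPKM in the lowest, median and highest library. It averaged 6361 ± 327 in Ws-0 and 3231 ± 568 in Rsch-4 (span 0.99, adjusted p = 0.00172). Among the 3 genes for the linker CP29, LHCB4.1 was the most abundant and moved least, with 4396 ± 10.5 RPKM in Ct-1 and 3087 ± 505 in Rsch-4 (span 0.52, adjusted p = 0.0281); in 5 of the left-out fits it was above 0.05, at most 0.0633 (without Ws-0 replicate 2). LHCB4.2 (AT3G08940) averaged 828 ± 4.60 in Rsch-4, its lowest accession, and 1824 ± 267 in Col-0, its highest, 2.204-fold apart (span 1.13, adjusted p = 0.000327), and both Rsch-4 libraries were below all others. LHCB4.3 (AT2G40100, chr2:16745628-16747424, plus strand), also known as LHCB8, was scarce and varied more than either. Its lowest library had 20.7 RPKM, the median was 49.1 and the highest 106. It averaged 99.6 ± 8.55 in Mt-0 and 21.7 ± 1.35 in Sf-2, 4.60-fold apart (span 2.15, adjusted p = 1.71e-06). LHCB5 and LHCB6, which encode the linkers CP26 and CP24, were highest in Ct-1, at 5212 ± 70.8 and 3914 ± 480 RPKM, against 3391 ± 239 in Tsu-0 for LHCB5 (adjusted p = 0.0223) and 2572 ± 161 in Rsch-4 for LHCB6 (adjusted p = 0.0165). Without Ct-1 replicate 2 these adjusted p became 0.0587 and 0.0504, and without Ct-1 replicate 1 that of LHCB5 was 0.0537. LHCB7, the rarest antenna gene, had 6.85 to 17.5 RPKM, with 15.9 ± 0.188 in Ler-0 and 8.45 ± 1.54 in Col-0; its adjusted p of 0.0356 became higher than 0.05 in 12 left-out fits, at most 0.0655 (without Col-0 replicate 2).

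Apart from LHCB2.3, the ELIPs ranged more widely than any other member. ELIP1 (AT3G22840, chr3:8084405-8085669, minus strand, 3 exons) had 101 and 91.5 RPKM in Kn-0 and 69.6 and 96.1 in Ler-0, against 7.19 and 8.46 in Wil-2, 15.0 and 10.4 in Tsu-0, and 11.6 and 16.9 in Zu-0. The median library had 26.6, and both Wil-2 libraries lay below all 36 others. Kn-0 averaged 96.1 ± 6.52 and Wil-2 7.83 ± 0.896, 12.3-fold apart (span 3.46, adjusted p = 4.78e-07). ELIP2 (AT4G14690, chr4:8418242-8419325, plus strand, 3 exons) had 52.7 and 42.1 RPKM in Kn-0, above all other libraries, and 7.205 at the median. In Rsch-4 it was listed at 0 and at 1.53 RPKM, and in Zu-0 at 0.845 and 0.728, values of the order of the floor. No fold is therefore given against them; the span was 4.92 (adjusted p = 1.24e-08). The ratio of ELIP2 to ELIP1 was 1.25 in Ct-1, the only accession in which ELIP2 was the higher, and 0.318 at the median of the accessions. PSBS (AT1G44575) moved far less than the ELIPs, with 936, 1270.4 and 1533 RPKM in the lowest, median and highest library, and 1438 ± 63.4 in Ct-1 against 1003 ± 95.02 in Tsu-0 (span 0.52, adjusted p = 0.0185).

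**Figure D2:**
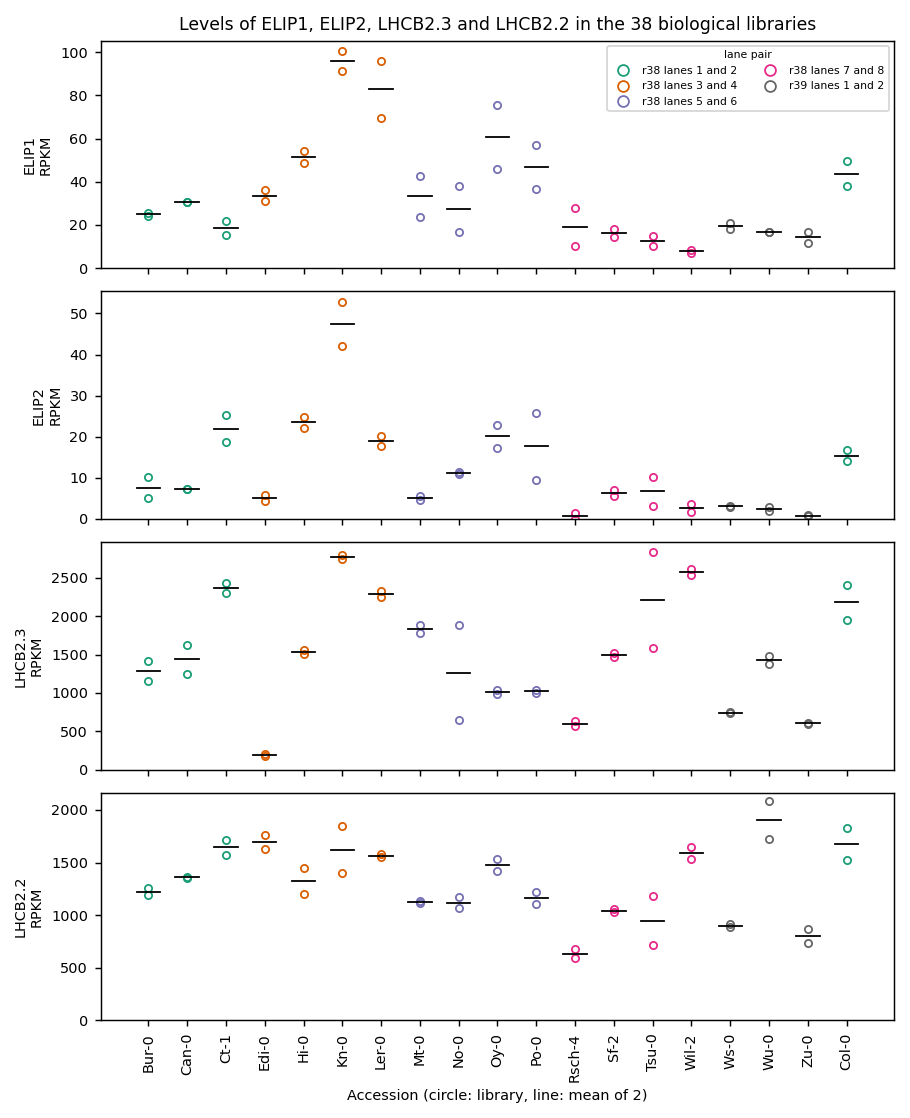
RPKM of ELIP1, ELIP2, LHCB2.3 and LHCB2.2 in each of the 38 biological libraries, by accession with Col-0 last; points are libraries, lines the mean of 2, and colour the lane pair. Edi-0 stands at 206 and 171 RPKM for LHCB2.3 but at 1631 and 1758 for LHCB2.2, and the ELIPs peak in Kn-0.

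Subunits of photosystem I were high and narrow, and Wil-2 was the highest accession for 8 of the 12. Of these 8, PSAD1, PSAE1, PSAF, PSAH2 and PSAL did not pass the F test. PSAD and PSAE form the stromal face where ferredoxin docks. PSAD2 (AT1G03130) had 1317, 1883 and 2516 RPKM in the lowest, median and highest library, with 2434 ± 116 in Wil-2 and 1358 ± 58.8 in Zu-0 (span 0.84, adjusted p = 0.000346), and its paralog PSAD1 5599.6 ± 314 in Wil-2 and 3498 ± 71.5 in Wu-0 (span 0.68, adjusted p = 0.113). PSAE2, the least abundant of the 12, averaged 974 ± 15.8 in Ct-1 and 629 ± 25.8 in Ler-0 (span 0.63, adjusted p = 0.0209; 0.0529 and 0.0598 without one or the other Ct-1 library), while PSAE1 averaged 3807 ± 362 in Wil-2 and 2851 ± 22.3 in Wu-0 and did not pass. PSAF, the docking subunit for plastocyanin, was the most abundant and had the widest span of the 12, 0.87, with 9828 RPKM in Wil-2 replicate 1, 5717 at the median and 4520 in the lowest library. It missed the threshold (adjusted p = 0.117). The small membrane subunits PSAG and PSAK passed, with 6374 ± 816 RPKM for PSAG in Wil-2 against 3948 ± 623 in Oy-0 (adjusted p = 0.0205; 0.0869 without Wil-2 replicate 1), and 3137 ± 295 for PSAK in Ct-1 against 2054 ± 376 in Rsch-4 (adjusted p = 0.0247; 0.0571 without Rsch-4 replicate 1). PSAN, on the lumen side, averaged 2129 ± 49.1 in Ct-1 and 1324 ± 310 in Rsch-4 (adjusted p = 0.0182). Of the subunits at which the mobile antenna docks in state transitions, PSAH1 had 2023 and 2025 RPKM in Wil-2, above every other library, but its adjusted p of 0.0406 was above 0.05 in 23 left-out fits, at most 0.144 (without Wil-2 replicate 2). PSAH2, PSAL and PSAO did not pass.

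Photosystem II subunits were led by PSBR (AT1G79040), which helps the oxygen-evolving proteins bind, with 5063, 6492 and 8556 RPKM in the lowest, median and highest library. It averaged 5200.0 ± 194 in Zu-0, its lowest accession, and 7921 ± 898 in Col-0, its highest (span 0.60, adjusted p = 0.0123), and both Zu-0 libraries were below all others. In each pair of oxygen-evolving paralogs that the list holds, the manganese-stabilising PSBO and the extrinsic PSBQ, the second gene passed and the first did not. PSBO2 (AT3G50820) averaged 1885 ± 207 in No-0 and 1123 ± 21.5 in Rsch-4 (span 0.74, adjusted p = 0.00124), whereas PSBO1, the more abundant (4574 RPKM over the 38 libraries, against 1394 for PSBO2), averaged 4137 ± 15.1 in Can-0, its lowest accession, and 5037 ± 430.1 in Col-0, its highest, the narrowest span of all members at 0.28 (adjusted p = 0.347). Their ratio, PSBO2 to PSBO1, was 0.396 in No-0, 0.245 in Rsch-4 and 0.298 at the median. PSBQ2 (AT4G05180) had 1343, 1869 and 2623 RPKM in the lowest, median and highest library, with 2609 ± 19.4 in Ws-0 and 1466 ± 70.4 in Mt-0 (span 0.83, adjusted p = 4.41e-05), and PSBQ1 1510.2 ± 19.9 in Ct-1 and 1129 ± 55.0 in Edi-0 (span 0.42). PSBP1 and the small PSBW did not pass. The small membrane subunit PSBX averaged 5018 ± 143 in Ws-0 and 3124 ± 581 in Rsch-4 (adjusted p = 0.00810). PSBY averaged 3172 ± 237 in Wil-2 and 1721 ± 57.4 in Zu-0 (span 0.88, adjusted p = 0.0354), a call lost in 8 left-out fits, with an adjusted p of at most 0.0932 (without Zu-0 replicate 1).

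Counted over all 45 members, whether or not they passed the F test, the lowest accession mean fell in Rsch-4 for 17 (3 LHCA, 8 LHCB, PSBO2 and other core subunits among them), in Zu-0 for 5, and in Tsu-0 and Wu-0 for 4 each. The highest fell in Ct-1 for 13, of which 7 were LHCB genes, in Wil-2 for 11, of which 8 were photosystem I subunits, in Ws-0 for 7 and in Kn-0 for 4. Summed over the 15 LHCB genes, Ct-1 had 42158 ± 556 RPKM and Rsch-4 23866 ± 2828, 1.77-fold apart. Ct-1 also had the lowest mean root marker sum of the 19 accessions (103 and 97.5 RPKM, mostly PYK10), whose part in its antenna values was not tested. The LHCB1 sum was 1.86-fold apart between the same accessions, and the LHCB2 sum 3.27-fold between Kn-0 (5891.5 ± 679) and Rsch-4 (1802 ± 62.8). Summed photosystem I subunits gave 45313 ± 2953 in Wil-2 and 32284 ± 366 in Wu-0, 1.404-fold, the LHCA genes 1.36-fold between Ws-0 and Tsu-0, and photosystem II subunits 1.21-fold between Ct-1 and Sf-2. A sum of levels cannot differ between accessions by a larger fold than its widest member, so the smaller folds of the sums are no result.

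Set against Col-0, the members were lower far more often than higher. Over 45 members and 18 accessions, 79 of 810 differences (9.75%) passed as lower, against 4.37% over all tested genes, and 10 (1.23%) as higher, against 4.6% over all genes (limma contrasts, adjusted p below 0.05 within each accession). All 18 comparisons share the 2 Col-0 libraries. With quantile normalization 16 were higher and 57 lower, which put the share of higher calls at 21.9% against 11.2%. Without Col-0 replicate 2 the calls were 34 lower and 1 higher, and without Col-0 replicate 1 there were 52 lower, so the counts depended on the Col-0 libraries; without one or the other No-0 library there were 16 higher. With no filter on low values 41 were lower and 2 higher. By role, lower calls were 38 of 270 tests for LHCB, 10 of 108 for LHCA, 16 of 54 for the photoprotective genes, 4 of 216 for photosystem I and 11 of 162 for photosystem II. ELIP1 was lower in 8 accessions, and ELIP2, LHCB2.2, LHCB2.3 and LHCB4.2 in 7 each, while 18 members were called in none.

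**Figure D3:**
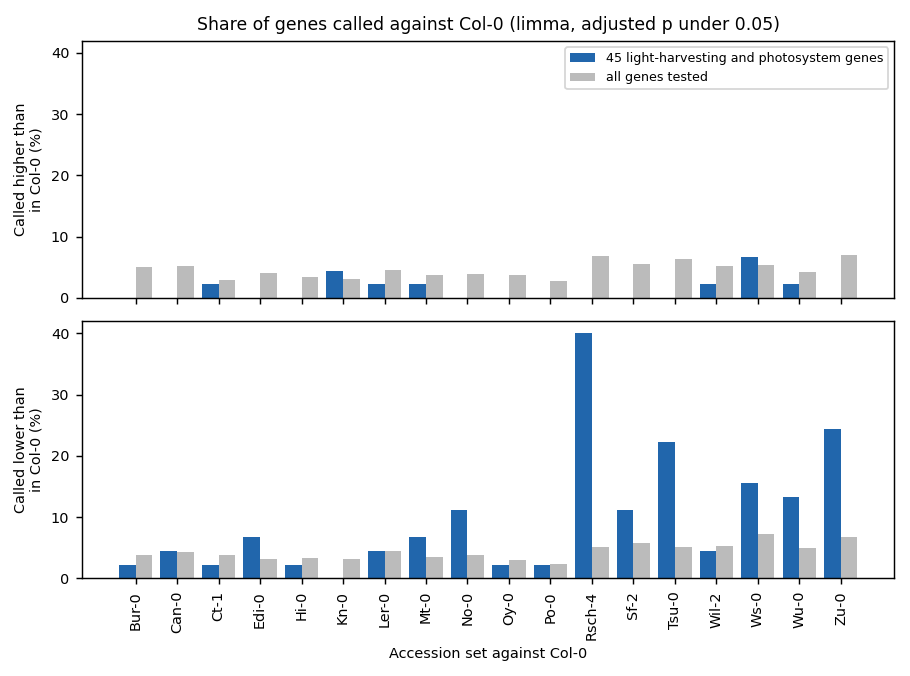
Percent of the 45 members (blue) and of all tested genes (grey, 20606 to 20650 in a comparison) that passed limma's test against Col-0 in each of the 18 accessions, higher above and lower below. The members' bar for lower calls is longest in Rsch-4, with 18 members against 5.04% of all genes, then Zu-0 and Tsu-0; all comparisons share the Col-0 libraries.

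Rsch-4 differed most, with 18 of 45 members lower, against 5.04% of all genes, and none higher. They were 4 LHCA genes, 9 LHCB genes, both ELIPs, PSAN, PSBO2 and PSBP1. ELIP2 was listed at 0 and 1.53 RPKM in Rsch-4, against 16.7 and 14.0 in Col-0, a difference of -3.36 (SE 0.43, adjusted p = 5.73e-06) that passed in every fit that left out 1 library. LHCB2.2 had 594.5 and 676 RPKM in Rsch-4, against 1528 and 1828 in Col-0, LHCB2.3 632 and 568 against 1956 and 2403, and LHCB4.2 averaged 828 ± 4.60 against 1824 ± 267. None of these ranges overlap. LHCB3 averaged 3231 ± 568 RPKM in Rsch-4 and 5159 ± 416 in Col-0. The count of lower members was 6 without Rsch-4 replicate 1, 10 without Col-0 replicate 1, and 11 with quantile normalization or with no filter on low values. Clock genes and a flower marker, SEP3, also stood apart from most other libraries in Rsch-4, and their part in these differences was not tested. The summed evening clock genes had 3809 and 3340 RPKM in Rsch-4, against a median of 1244 in the 36 libraries of other accessions. Such a sum follows mainly its most abundant gene. In Zu-0, where the sum was highest at 4411 RPKM, that gene had 4053, while ELF4 had 134 and FKF1 58.2. The morning clock factor CCA1, first described by its binding to an LHCB1 promoter, had 4.02 and 4.07 RPKM in Rsch-4 against 15.6 and 16.2 in Col-0. The 4 flower markers summed to 28.6 and 27.1 RPKM in Rsch-4, where the other libraries ran from 0.268 to 28.9 with a median of 3.09. Most of the Rsch-4 sum was SEP3, since AG, PI and AP3 exceeded 2.19, 2.27 and 0.952 RPKM in no library. AP3 was at 0 in 24 of the 38 libraries. The root markers summed to 176 and 181 in Rsch-4, inside the range of the others.

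Zu-0 had 11 members lower, against 6.71% of all genes, and Tsu-0 had 10, against 5.1%. In Zu-0, ELIP2 was listed at 0.845 and 0.728 RPKM, against 16.7 and 14.0 in Col-0 (difference -3.19, adjusted p = 8.15e-06, kept in every left-out fit). LHCB2.3 averaged 605 ± 8.16 RPKM in Zu-0 and 2179 ± 316 in Col-0, and LHCB2.2 798 ± 95.3 and 1678 ± 212. PSBR, PSBO2, PSBY, PSAD2, LHCA1, LHCB2.1, LHCB4.2 and ELIP1 made up the rest. Zu-0 also had the highest evening clock sums, 4485 and 4337 RPKM, and the lowest CCA1, 2.03 and 1.13; their part was not tested. Without Zu-0 replicate 1 only 4 members were lower, and without Col-0 replicate 2 there were 5; with quantile normalization there were 7. In Tsu-0, ELIP1 averaged 12.7 ± 3.22 RPKM, against 43.8 ± 8.34 in Col-0 (difference -1.72, adjusted p = 0.00231, kept in every left-out fit), and 7 of the 10 lower members were LHCB genes. The evening clock sums were 2529 and 2296 RPKM in Tsu-0, against 626 and 729 in Col-0, CCA1 had 6.19 and 5.75 against 15.6 and 16.2, and the root markers summed to 248 and 407 against 159 and 220.3; their part was not tested. Without Tsu-0 replicate 1 there were 3, and without one or the other Col-0 library 4; with no filter on low values there were 5.

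In the other accessions 7 or fewer members were lower. LHCB2.3 in Edi-0 had the largest antenna difference, -3.52 (SE 0.28, adjusted p = 2.77e-09, 189 ± 25.4 RPKM against 2179 ± 316 in Col-0), which passed in every left-out fit; Edi-0 had 3 lower members, against 3.19% of all genes. ELIP1 in Wil-2 differed by -2.33 (adjusted p = 8.14e-05), and ELIP2 by -2.01 in Ws-0 (adjusted p = 0.00219) and by -2.30 in Wu-0 (adjusted p = 0.000788), all 3 kept in every left-out fit. ELIP2 rested on few reads there, by TAIR10.1 exon lengths an estimated 11.3 and 3.37 in the Ws-0 libraries and 6.75 and 6.76 in those of Wu-0. Wil-2 had 2 members lower (5.29% of all genes) and 1 higher (5.17%), Ws-0 7 lower (7.16%) and 3 higher (5.31%), and Wu-0 6 lower (4.91%) and 1 higher (4.2%). The 3 higher in Ws-0 were LHCA2, LHCA3 and PSBQ2, of which PSBQ2 had 2609 ± 19.4 RPKM in Ws-0 (difference 0.45, adjusted p = 0.0120; 0.0510 to 0.0712 without one or another of the 4 libraries compared). LHCA3 was higher in Wu-0 by 0.50 (adjusted p = 0.00896), but not without Col-0 replicate 2 (0.126) or Wu-0 replicate 1 (0.0906). Kn-0 was the one accession with no member lower (3.2% of all genes) and had 2 higher (3.05%), ELIP2 and LHCB7. ELIP2 was higher there by 1.56 (SE 0.43, adjusted p = 0.0258), with 52.7 and 42.1 RPKM in Kn-0 against 16.7 and 14.0 in Col-0; the groups do not overlap, yet the adjusted p was 0.0771 to 0.199 without one or another of the 4 libraries. Kn-0 had low evening clock sums, 401 and 338 RPKM, and CCA1 at 36.4 and 35.3; their part was not tested. LHCB4.3 was higher in Mt-0 by 1.02 (adjusted p = 0.0120; 0.138 without Col-0 replicate 2 and 0.121 without Mt-0 replicate 1), with 1 higher against 3.66% of all genes. LHCB2.3 was lower in No-0 (-0.98, adjusted p = 0.0319), Oy-0 (-1.10, adjusted p = 0.0162) and Po-0 (-1.09, adjusted p = 0.0219). Each of these calls was lost without some single libraries, with an adjusted p of up to 0.741 in No-0 (without No-0 replicate 2), 0.155 in Oy-0 and 0.198 in Po-0 (both without Col-0 replicate 2).

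The remaining accessions had 5 lower members at most. Sf-2 had 5 members lower (5.83% of all genes) and No-0 5 (3.76%), Mt-0 3 (3.54%), Can-0 2 (4.24%), Ler-0 2 (4.4%), and Bur-0 (3.77%), Ct-1 (3.76%), Hi-0 (3.39%), Oy-0 (3.03%) and Po-0 (2.34%) 1 each. Ct-1 (2.89%) and Ler-0 (4.53%) had 1 higher member each, LHCB1.1 and LHCB7. None was higher in Bur-0 (5.11% of all genes), Can-0 (5.24%), Edi-0 (4.13%), Hi-0 (3.43%), No-0 (3.92%), Oy-0 (3.79%), Po-0 (2.72%), Rsch-4 (6.79%), Sf-2 (5.5%), Tsu-0 (6.28%) or Zu-0 (7.05%). ELIP1 was the member furthest below Col-0 in Sf-2 (-1.38, adjusted p = 0.0133; 0.120 without Col-0 replicate 1 and 0.130 without Sf-2 replicate 2), where the root markers, 440.4 and 472 RPKM, were the highest of all accessions and their part was not tested, and in Ct-1 (-1.20, adjusted p = 0.0469; lost in 26 of the left-out fits, up to 0.337 without Ct-1 replicate 1). LHCB1.1 was higher in Ct-1 by 0.58 (adjusted p = 0.0360; 0.481 without Col-0 replicate 2) and lower in Hi-0 by 0.57 (adjusted p = 0.0376; 0.422 without Col-0 replicate 1), with 2322 ± 105 RPKM in Ct-1 and 1044 ± 103 in Hi-0 against 1574 ± 378 in Col-0. PSAD2 in Can-0 and Wil-2, LHCA5 in Bur-0, PSBR and LHCB7 in Ler-0 and ELIP2 in Mt-0 had adjusted p between 0.0268 and 0.0496, and each was lost without one or another of the libraries compared. The calls of PSAD2 in Can-0 and Wil-2 and of ELIP2 in Mt-0 were also lost without some single libraries of accessions not compared.

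Asked in another way, without Col-0 as the base, 20 members had both libraries of some accession above all 36 others (11 members) or below them (9), against 18.3% (above), 12.2% (below) and 27.8% (either) of all tested genes. Ct-1 was above for LHCB1.1, LHCB1.3, LHCB1.4, LHCB5 and PSAE2, Ws-0 for LHCA2 and PSBQ2, Wil-2 for LHCA1 and PSAH1, Kn-0 for ELIP2, and No-0 for PSBO2. Rsch-4 was below for LHCA3, LHCB2.2, LHCB4.2 and PSBP1, Zu-0 for PSAF and PSBR, Edi-0 for LHCB2.3, Wil-2 for ELIP1 and Wu-0 for PSAD1. PSBO2 in No-0, for example, had 2032 and 1739 RPKM, and the highest library elsewhere had 1721.

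Members were also set against each other and against regulators over the 19 accession means, in 14 pairs, with permutation p adjusted over the 14. The points share lane pairs. ELIP1 and ELIP2 had r = 0.77 (rho = 0.73, adjusted permutation p = 0.00210 for r and 0.00257 for rho), 0.69 without Kn-0 and Ler-0, and 0.44 within lane pairs. ELIP1 and CCA1 had r = 0.76 (rho = 0.78, adjusted permutation p = 0.00224 and 0.00161), 0.67 without the same accessions, and 0.38 within lane pairs. LHCB4.3 went with ELIP1 (r = 0.68, rho = 0.77, adjusted permutation p = 0.00765 and 0.00161; r = 0.73 without Mt-0 and Sf-2, and 0.47 within lane pairs). ELIP1 and HY5, a bZIP factor of light signalling, had r = 0.58 (rho = 0.61, adjusted permutation p = 0.0248 and 0.0247), and without Kn-0 and Ler-0 r was 0.48 with an unadjusted permutation p of 0.0544. Within lane pairs its r was 0.51, and its adjusted permutation p was above 0.05 without Kn-0 replicate 1 (0.0518), Sf-2 replicate 1 (0.0544) or Ws-0 replicate 1 (0.0516). The CP29 genes LHCB4.1 and LHCB4.2 had r = 0.60 (rho = 0.58, adjusted permutation p = 0.0230 and 0.0250), with 0.69 without Ct-1 and Ws-0 and 0.60 within lane pairs; without Rsch-4 replicate 1 r was 0.48 (adjusted permutation p = 0.0734). LHCB2.2 and CCA1 had r = 0.55 (rho = 0.45, adjusted permutation p = 0.0330 and 0.0810), which rested on Rsch-4 and Zu-0, since r was 0.35 without them (0.50 within lane pairs); without Wu-0 replicate 2 its adjusted permutation p was 0.0502. PSAD1 and PSAD2 had r = 0.51 (rho = 0.38, adjusted permutation p = 0.0493 and 0.133), which rested on Wil-2 and Wu-0, since r was 0.17 without them (0.44 within lane pairs), and its adjusted permutation p was up to 0.101 (without No-0 replicate 2). For the other 7 pairs r did not pass, among them LHCB2.2 with LHCB2.3 (r = 0.32, rho = 0.43, adjusted permutation p = 0.239 and 0.0971) and LHCA1 with LHCB3 (r = -0.13, rho = 0.03, adjusted permutation p = 0.584 and 0.906). Of these 7, PSBO1 with PSBO2 alone passed by rho (r = 0.46, rho = 0.58, adjusted permutation p = 0.0632 and 0.0250). Within lane pairs its r was 0.53.

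**Figure D4:**
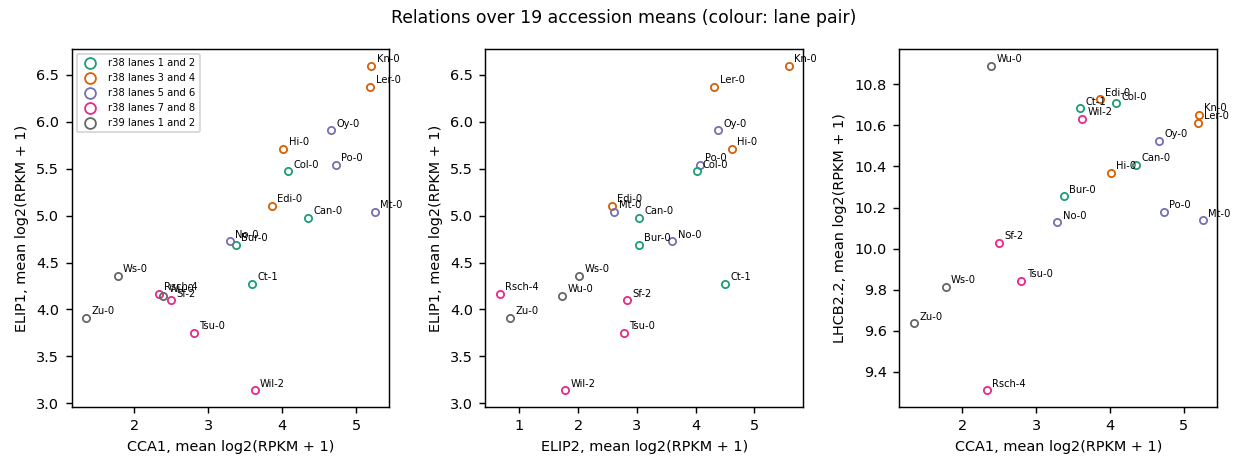
Accession means of log2(RPKM + 1) for ELIP1 against CCA1, ELIP1 against ELIP2, and LHCB2.2 against CCA1; each of the 19 points is an accession and colour is its lane pair. ELIP1 goes with both partners (r = 0.76 and 0.77), while the slope for LHCB2.2 (r = 0.55) depends on the low Rsch-4 and Zu-0 points.

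Lane pairs were looked at one by one, since 3 or 4 accessions share each. Within r38 lanes 3 and 4 (Kn-0, Ler-0, Hi-0 and Edi-0) 8 members passed the F test, against 19.2% of all genes, namely LHCB1.1, LHCB1.2, LHCB1.4, LHCB2.3, LHCB4.3, ELIP1, ELIP2 and PSAE2. Within r39 lanes 1 and 2, LHCA6, LHCB2.2 and LHCB2.3 passed (3.77% of all genes), within r38 lanes 7 and 8 LHCB2.3 (6.61%), within lanes 1 and 2 ELIP1 (13.7%), and within lanes 5 and 6 none (4%), where 6 members had an unadjusted p under 0.05 in limma. LHCB2.3 therefore differed between accessions on the same lanes in 3 of the 5 pairs: 2770.5 RPKM in Kn-0 against 189 in Edi-0, 2578 in Wil-2 against 600.2 in Rsch-4, and 1427 in Wu-0 against 605 in Zu-0. LHCB2.2 had 1588 RPKM in Wil-2 and 635 in Rsch-4 on shared lanes, 2.50-fold apart, and ELIP2 was 9.46-fold higher in Kn-0 than in Edi-0. ELIP1 also differed between lane pairs, with a mean of 66.0 RPKM on r38 lanes 3 and 4, 13.9 on lanes 7 and 8, and 16.8 on r39, and there accession and lane pair cannot be told apart.

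Other genes of the photosynthetic apparatus, from lists of related pathways, passed the F test in nearly all cases: 10 of 10 for electron transport and ATP synthase, 13 of 13 for chlorophyll synthesis, 12 of 13 for assembly factors and relatives of the antenna, and 9 of 9 for regulators, against 55.3% of all tested genes. Against Col-0, where 4.37% of all tests were lower and 4.6% higher, electron transport genes were lower in 26 and higher in 8 of 180 tests, chlorophyll synthesis genes in 33 and 8 of 234, and assembly factors in 24 and 8 of 234. Regulators were nearly even, with 17 lower and 14 higher of 162. The morning clock genes were lower in 17 and higher in 5 of 90 tests, and the evening clock genes lower in 2 and higher in 42 of 108. HEMA1, the first committed enzyme of tetrapyrrole synthesis, averaged 370.2 ± 83.9 RPKM in Oy-0 and 94.2 ± 14.8 in Zu-0 (span 1.95, adjusted p = 2.26e-08), and GUN4, which activates magnesium chelatase, 396 ± 3.93 in Wil-2 and 119 ± 7.16 in Zu-0 (span 1.73, adjusted p = 1.43e-06). OHP1, a one-helix relative of the antenna proteins, averaged 436 ± 19.2 in Ler-0 and 109 ± 24.6 in Rsch-4 (span 2.00, adjusted p = 9.55e-06), and ZEP, the epoxidase that ends the xanthophyll cycle's photoprotective state, 268 ± 2.56 in Ler-0 and 84.0 ± 2.74 in Ws-0 (span 1.66, adjusted p = 3.37e-08). The ferredoxin gene FD1 averaged 893 ± 6.58 in Po-0 and 428 ± 73.4 in Zu-0, and FD2 3768 ± 537 in Ws-0 and 1938 ± 13.4 in Wil-2. Zu-0 or Rsch-4 was thus the lowest accession for 4 of these 6 genes.

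The technical Col-0 libraries came from another feature set and another sequencing run, so they were set beside the biological Col-0 libraries by description alone. By the labels all 4 shared run 35, lane 7, while the biological Col-0 libraries were on run 38, lanes 1 and 2. For members with at most 1% of shared 36-base words the ratio of technical to biological means had a median of 0.876 and ran from 0.528 (ELIP1, 23.1 ± 1.69 against 43.8 ± 8.34 RPKM) to 3.19 (LHCB7, 26.9 ± 4.69 against 8.45 ± 1.54). In contrast, 6 of the 8 members with more shared words lay at least 2-fold apart. LHCB1.2 had 4948 ± 359 RPKM in the technical and 629 ± 392 in the biological libraries, 7.87-fold more, LHCB1.3 12172 ± 594 and 3613 ± 466, and LHCB2.1 2721 ± 106 and 1159 ± 50.8. LHCB1.4 went the other way, at 853 ± 20.2 and 2122 ± 491 (ratio 0.402). Summed, LHCB1 was 2.58-fold higher in the technical libraries and LHCB2 1.29-fold. The technical libraries, all from the same lane, differed little among themselves, with a median CV of 5.02% over the members. CCA1 stood at 40.7, 46.9, 39.8 and 43.5 RPKM in them, against 15.6 and 16.2 in the biological Col-0 libraries. What part the plants, their harvest, the sequencing run or the processing had in any of these ratios was not tested.

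**Figure D5:**
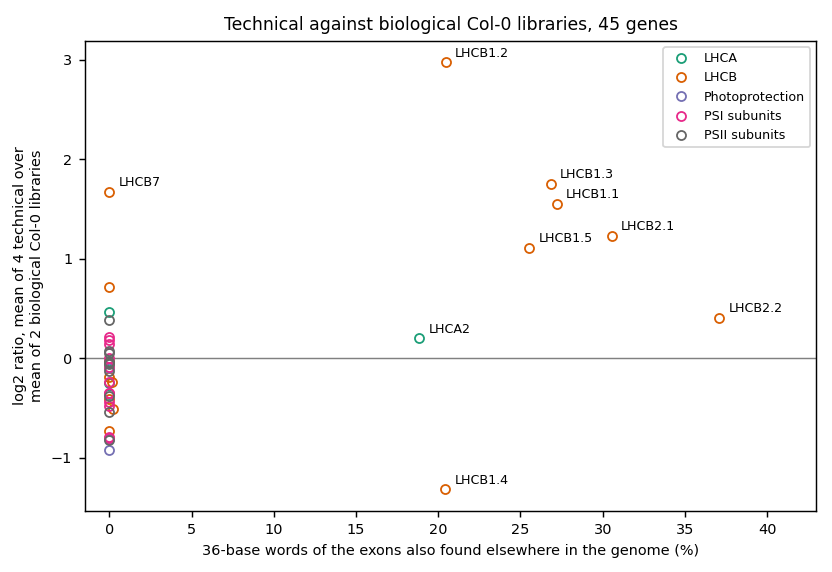
Ratio, on a log2 scale, of the mean RPKM in the 4 technical Col-0 libraries to that in the 2 biological ones (y axis) against the percent of a member's 36-base words found elsewhere in the genome (x axis); each point is a member. Members with at most 1% lie between 0.528-fold (ELIP1) and 3.19-fold (LHCB7), and 6 of the 8 with over 1% lie at least 2-fold away, LHCB1.4 below and the others above.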

How the data were processed

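Polyadenylated RNA was sequenced from 38 biological and 4 technical seedling libraries. The authors deposited RPKM, which per the file headers scales the reads on an exon model to its length and to the mapped total, on the builds TAIR9 and TAIR10 per the submitters' processing notes. Not given in the sources used here were the aligner, the counter, whether strand was used and what became of multiply matching reads; each can shift paralogs and accessions unlike Col-0. The code -1 in the tables was read as no value, and no member carried it.

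Values were taken as log2(RPKM + 1). Genes that reached 1 RPKM in 2 or more of the 38 libraries entered a limma fit (3.58.1, R 4.3.3) of 1 mean per accession without a block, moderated with a trend (prior 4.63 degrees of freedom). An F test over 19 accessions and 18 contrasts against Col-0 were adjusted by the Benjamini-Hochberg method over all genes, with a threshold of 0.05. Correlations used 100000 permutations (two-sided). Whole reads were not recovered with the exon lengths of TAIR10.1: 9.52% to 13.2% of low values lay within 0.02 of a whole number of reads. Low estimates for ELIP2 were evenly spaced, though not at whole numbers (2.25, 3.38, 4.50, 5.63 and 6.75). Whether other exon lengths would give whole reads was not tested. No count test was run, and the number of reads behind a value is an estimate. The script was tested on simulated data. Names, positions and sequences came from RefSeq's TAIR10.1 annotation, in which all 45 members matched; coordinates were not converted between builds. Python 3.11.15, numpy 2.4.6, pandas 2.3.3, Biopython 1.88 and matplotlib 3.10.9 were used.

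The members and lists were chosen with earlier results of these data known. Full values were given for the 12 members with the widest span past the F test, the most and least abundant of each role, members of paralog pairs, the widest 2 genes of a context list, and in each accession the member furthest above and below Col-0. Other members, the clock and organ marker sums beside them and the values on shared lanes were picked after their values were seen. Alternatives were the pseudocount, the filter, the scaling, the trend, the replicate and lane blocks, lane pairs alone and leaving out each library.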

Additional observations from a re-analysis of the deposited data

Results flagged for a closer look

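PSBQ1 had 838 RPKM in technical replicate 4 of Col-0, where the other 3 technical libraries had 987 to 1008, so that this library stood further from its neighbours than a test for single distant values allows (gap over range 0.878). PSBX had 3701 RPKM in the same library and 4004 to 4062 in the others (gap over range 0.840). All 45 members were tested in this group of 4, and chance alone gives such a value in about 1 of 20 groups.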

How the results depend on the processing

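The count of members past the F test was 35, and 32 with a pseudocount of 0.1 or with no trend, 37 with a pseudocount of 10, 33 with median ratio scaling, 27 with quantile normalization, 25 with a lane block and 35 with a replicate block. With no filter on low values it was 18, within single lane pairs it was 1, 8, 0, 1 and 3, and with 1 library left out it was 29 to 38. PSBO1 and PSBQ1 passed in none of the 47 fits over all accessions and 17 members passed in all. Higher calls against Col-0 were 2 with no filter, 16 with quantile normalization and 1 to 16 with 1 library left out, against 10; lower calls were 41 with no filter and 34 to 92 with 1 left out, against 79. Lower members in Rsch-4 were 11 with no filter or quantile normalization and 6 to 20 with 1 library left out, in Zu-0 7 with quantile normalization and 4 to 13 with 1 left out, and in Tsu-0 5 with no filter and 3 to 13 with 1 left out. The cause of these shifts was not tested.

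Over 20453 genes, replicate differences had little in common between accessions: their correlations ran from -0.139 to 0.133, with 2 of 171 over 0.1. Such correlations do not speak to single members. LHCB1.2 was lower in replicate 2 in Bur-0, Can-0, Ct-1 and Col-0, which share r38 lanes 1 and 2. With the replicate block there were 9 higher and 75 lower calls.

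Settings for the relations were chosen after seeing the data. PSAD1 with PSAD2 had r = 0.514 (adjusted permutation p = 0.0574) with a pseudocount of 10, 0.269 (0.338) with quantile normalization and 0.425 to 0.597 with 1 library left out; LHCB2.2 with CCA1 had 0.492 (0.0631) with a pseudocount of 10 and 0.507 to 0.597 with 1 left out. LHCB4.1 with LHCB4.2 had 0.407 (0.164) with quantile normalization and 0.476 to 0.678 with 1 left out, and ELIP1 with HY5 0.506 to 0.628. With median ratio scaling LHCB1.4 with LHCB2.2 had 0.506 (0.0413) and PSBO1 with PSBO2 0.553 (0.0250), and with 1 left out 0.418 to 0.528 and 0.409 to 0.538. LHCB2.2 with GRP7 had -0.527 (0.0472) with quantile normalization and -0.508 to -0.444 with 1 left out. LHCA1 with LHCB3, which passed in no setting, had r = 0.0207 with median ratio scaling against -0.134; no other result changed sign.

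Depth limits ELIP2, ELIP1 and LHCB7 most: in the library with the fewest reads an RPKM near 1 stands for a few reads. Only 2 libraries stand behind each accession, and many single calls near the threshold were lost when 1 was left out.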

Other observations

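Of 855 pairs of replicate libraries (45 members in 19 accessions), 9 differed by at least 1 on the log2 scale, in 7 accessions. LHCB1.2 made up 3 of them, all on r38 lanes 1 and 2 and all higher in replicate 1: 1373 and 602 RPKM in Bur-0, 1334 and 554 in Can-0, and 906 and 352 in Col-0. The 4th accession on those lanes, Ct-1, had 1156 and 701. In No-0, ELIP1 had 38.03 RPKM in replicate 1 and 16.9 in replicate 2, and LHCB2.3 1888 and 641, while the clock genes CCA1 and GRP7 had 23.3 and 2.92, and 420 and 3384 RPKM. What part clock genes had in the members' values was not tested. The other pairs were ELIP2 in Po-0, Rsch-4 and Tsu-0 and ELIP1 in Rsch-4, with 10.2 and 27.8 RPKM.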
